A study of Mus musculus with 59 samples.

Results

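Transcripts of 8 transcription factor genes of myeloid commitment were followed by RNA-seq in mouse haematopoietic progenitors after loss of Daxx, of Pu.1 or of both, namely Cebpa, Cebpb, Cebpd, Cebpe, Gfi1, Irf8, Klf4 and Runx1. They were chosen by name and not by a cut on measured values, though with earlier results of these data known, out of 51562 genes listed in every table used. All 8 had a row in each of the 6 gene tables whose columns could be matched to a sample or a group, which held 32 libraries. The tables of 24 w.p.i. (weeks post induction), of multipotent progenitors and of long-term stem cells were not analysed here. Cells were sorted from bone marrow of C57BL/6 mice as KLS cells (a mixed population that holds the stem cells and is sorted on c-Kit and Sca-1 without lineage markers) or as GMPs (granulocyte-monocyte progenitors). Daxx is a chaperone of histone H3.3, and Pu.1 is the transcription factor encoded by Spi1.

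The untimed set, whose labels give no time and no Cre line, held 2 Daxx-KO (Daxx F/F Cre +/-) and 2 WT (Daxx +/+ Cre +/-) libraries of each cell type. At 3 w.p.i. in the Mx1Cre line there were 3 Daxx-KO, 3 WT and 2 DKO libraries (floxed at both Daxx and Pu.1, F/F, with Cre +/-) of each cell type. A separate Pu.1 line, also Mx1Cre at 3 w.p.i., held 2 Pu.1-KO (Pu.1 F/F Cre +/-) and 2 Pu.1-WT (Pu.1 +/+ Cre +/-) libraries of each cell type. Every group, controls included, carried Cre. Mx1Cre is driven by an interferon-responsive promoter that is not restricted to blood cells, and the study's methods give pI:pC treatment of these mice. The study's methods describe sorting of KLS cells and GMPs from transplanted mice as well, but the labels do not tie any library to them. In the paper, all other KLS and GMP sets for RNA-seq have a time after induction. The paper reports Spi1 and Gfi1 as raised in Daxx-KO KLS cells in transplantation settings only. It also describes Spi1 and Cebpa among myeloid genes whose expression rose with time. In untimed KLS cells Spi1 was 1093 and 1155 in Daxx-KO against 439 and 400 in WT. Gfi1 was 265 and 266 against 96.3 and 110. The untimed set may come from transplanted mice, but no label states this and it was not tested. At 3 w.p.i. and in the Pu.1 line each library of a group has a number of its own in its column name, read here as that of an animal, and the same numbers recur in the KLS and GMP tables, so both cell types are taken to come from the same animals. The labels of the untimed set do not say whether its libraries came from separate animals, and p-values there measure the spread between these libraries.

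The C/EBP proteins are basic leucine zipper factors. C/EBPα is needed to form GMPs, C/EBPε acts later in granulocyte maturation, and C/EBPβ and C/EBPδ are tied to demand-driven granulopoiesis and to inflammation. Gfi1 is a zinc finger repressor that favours neutrophil over monocyte fate, while Irf8 and Klf4 favour monocytes and dendritic cells and Irf8 restrains neutrophil output. Runx1 is a DNA-binding subunit of core-binding factor and acts from the stem cell onward.

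Libraries held 3388906 to 22647397 gene reads in the untimed set, 11384751 to 15812520 at 3 w.p.i. and 10699070 to 19105576 in the Pu.1 line. Daxx lay between 22.8 and 44.6 normalized counts in untimed Daxx-KO libraries against 119 to 215 in WT, and between 55.1 and 102 in Daxx-KO and DKO libraries at 3 w.p.i. against 423 to 688 in WT. Spi1 was not lower in the KLS libraries labelled DKO, at 3330 and 2993 against 1669 to 2320 in WT. A gene-level count does not show which exons are left, so Daxx and Spi1 counts check the groups only in part. DKO and Pu.1-KO below name libraries by the group they were put in. The summed GMP markers were 63090 to 63926 in the untimed GMP libraries and 8841 to 18562 in the untimed KLS libraries. The summed KLS markers were 28134 and 29330 in untimed WT KLS cells and 4626 to 4862 in untimed GMPs. Untimed Daxx-KO KLS cells, at 6170 and 5708, lay much nearer to the GMPs than to WT KLS cells. Several libraries stood apart. Daxx-KO library 2 of KLS cells at 3 w.p.i. had summed B-lineage markers of 53899 against 15176 and 8598 in Daxx-KO libraries 1 and 3. All of these lay above the WT and DKO libraries, at 1795.5 to 3154, and 1 of 10 markers tested was called higher in Daxx-KO than in WT. WT library 1 of the untimed KLS cells had summed mature neutrophil markers of 6135 against 58.6 in WT library 2. The WT library of KLS cells at 3 w.p.i. whose column could be matched to its group only (called unnumbered here) had summed mature neutrophil markers of 29116 against 2628 and 544 in the numbered WT libraries. In KLS cells of the Pu.1 line, Pu.1-KO library b had lower values than library a for all 8 members.

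The upstream regions of 4 members are shown because the results below turn on them: Irf8, Klf4 and Gfi1, which split in untimed GMPs, and Cebpa, which differed in KLS cells. RefSeq promoter entries of GRCm38.p6, the build of the deposited tables, matched 6 of the 8 members, and 1 entry each is given here for Irf8, Klf4, Gfi1 and Cebpa. The RefSeq start is also that of the GENCODE gene for Irf8 and Cebpa. For Klf4 it lies just upstream of the GENCODE gene, and for Gfi1 it lies inside it, so the Gfi1 region is part of the annotated gene. Sequences run 5′ to 3′ on the gene's strand up to the base before the start, leaving out bases that lie in an annotated exon of the same gene. Capitals mark a match to 1 of 5 motifs searched on both strands in the 250 bases upstream of the start, of which 149 are shown for Gfi1.
Irf8, chr8:120736108-120736357, plus strand: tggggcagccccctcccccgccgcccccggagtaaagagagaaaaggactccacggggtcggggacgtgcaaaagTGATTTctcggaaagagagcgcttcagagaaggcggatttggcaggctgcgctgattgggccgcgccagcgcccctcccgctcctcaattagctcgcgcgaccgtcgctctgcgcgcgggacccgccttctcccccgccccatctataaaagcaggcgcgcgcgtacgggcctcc
Klf4, chr4:55532476-55532725, minus strand: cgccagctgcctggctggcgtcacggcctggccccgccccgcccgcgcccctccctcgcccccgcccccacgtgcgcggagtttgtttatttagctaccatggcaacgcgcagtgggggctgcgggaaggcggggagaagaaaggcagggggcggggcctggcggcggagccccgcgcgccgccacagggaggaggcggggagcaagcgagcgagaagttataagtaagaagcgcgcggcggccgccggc
Gfi1, chr5:107725806-107725954, minus strand: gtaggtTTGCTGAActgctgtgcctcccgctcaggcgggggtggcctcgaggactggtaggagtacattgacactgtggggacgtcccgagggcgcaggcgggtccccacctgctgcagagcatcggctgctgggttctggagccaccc
Cebpa, chr7:35119043-35119292, plus strand: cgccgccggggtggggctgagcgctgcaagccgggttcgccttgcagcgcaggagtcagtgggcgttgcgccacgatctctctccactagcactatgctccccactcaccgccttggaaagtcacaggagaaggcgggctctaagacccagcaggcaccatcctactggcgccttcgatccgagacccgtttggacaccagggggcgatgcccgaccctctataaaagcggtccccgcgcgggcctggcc
The motifs were GAGGAA (an ETS core bound by PU.1, in 23.3% of 32851 promoters over the same 250 bases), TTGCNNAA (C/EBP type, in 9.56%), AAATCA (GFI1 type, in 12.4%), GAAANNGAA (IRF type, in 7.13%) and TGTGGT (RUNX type, in 14% of them). The Gfi1 region held 1 C/EBP-type match that begins 143 bases before the start and the Irf8 region held 1 GFI1-type match that begins 175 bases before it. No other match lay in the Irf8, Gfi1, Klf4 and Cebpa regions shown. These are matches of letters and not binding sites. No promoter entry is given for Cebpd and Cebpe.

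In GRCm38 with GENCODE M21, the genes lie on chromosome 7 (Cebpa, 35119293 to 35121928), 2 (Cebpb, 167688915 to 167690418), 16 (Cebpd, 15887286 to 15891031, and Runx1, 92601466 to 92826149), 14 (Cebpe, 54710360 to 54712174), 5 (Gfi1, 107716657 to 107726036), 8 (Irf8, 120736358 to 120756694) and 4 (Klf4, 55527143 to 55532466). Cebpa, Cebpb, Cebpd, Gfi1 and Runx1 each overlap 1 gene on the opposite strand, and Irf8 overlaps 1 on its own strand. The use of strand in the counting is not given in the sources used here, so reads of such neighbours cannot be told apart from those of the member.

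Per kilobase of annotated exon, Runx1 had the highest level of the 8 genes in WT cells of every table, with a mean of 1094 normalized counts per kb in untimed GMPs and 1078 in untimed KLS cells. In untimed WT GMPs it was followed by Irf8 at 212 per kb, Gfi1 at 193, Cebpa at 185, Cebpe at 164, Klf4 at 66.0, Cebpd at 44.5 and Cebpb at 17.4. The libraries of Irf8 and Gfi1 overlapped on this scale, as did those of Gfi1 and Cebpa, while the other neighbours in this order did not. In untimed WT KLS cells the order was Runx1, Irf8 at 45.3 per kb, Gfi1 at 32.4, Cebpa at 25.1, Klf4 at 15.0, Cebpb at 5.15, Cebpd at 4.83 and Cebpe at 1.39, and of these neighbours Cebpb and Cebpd overlapped. KLS cells and GMPs were normalized in separate tables, so these levels were not tested against each other.

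In untimed GMPs, Daxx loss went with a split among the members: the monocyte-side factors Irf8 and Klf4 were lower in Daxx-KO, the neutrophil-side factors Gfi1, Cebpd and Cebpe were higher, and Cebpa and Runx1 were close to WT. With limma over all genes, 5 of the 8 members were called at an adjusted p under 0.05, 3 higher and 2 lower, where 33.0% of all 12744 genes tested were called, 16.6% higher and 16.5% lower. The median difference of the members was 0.04 on the log2 scale against -0.01 over all genes.

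Irf8 stood at 1350 and 1646 normalized counts in WT and at 292 and 177 in Daxx-KO GMPs, a log2 difference of -2.71 (SE 0.21, adjusted p 3.4e-05, limma). Both Daxx-KO libraries lay far below both WT libraries. Klf4 stood at 180 and 223 in WT and 32.4 and 23.3 in Daxx-KO, a log2 difference of -2.82 (SE 0.28, adjusted p 0.00011). Gfi1 showed the opposite order, with 634 and 595 in WT and 1504 and 1327 in Daxx-KO (log2 difference 1.20, SE 0.10, adjusted p 6e-05). Bulk RNA does not tell fewer cells of a type from less RNA per cell.

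Cebpd was 151 and 183 in WT GMPs and 298 and 329 in Daxx-KO (log2 difference 0.91, SE 0.16, adjusted p 0.0026). Cebpe, the late granulocyte factor, was 209 and 199 in WT and 260 and 332 in Daxx-KO (0.52, SE 0.16, adjusted p 0.038). This call was the weakest of the 5 and was lost with the replicate block (adjusted p 0.056) and with DESeq2 (adjusted p 0.089). It was also lost in 3 of the 4 fits that left out a library. Cebpa, the factor of GMP formation, differed by -0.02 (SE 0.11, adjusted p 0.89), with 501 and 473 in WT and 487 and 471 in Daxx-KO. Runx1 differed by 0.11 (SE 0.10, adjusted p 0.46) and Cebpb, at 19.9 to 32.5 in all 4 libraries, by -0.23 (SE 0.46, adjusted p 0.75).

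Other genes of the myeloid programme differed in the same comparison. Of 13 monocyte and dendritic genes tested, 9 were called lower and 3 higher, with Ctss, a lysosomal protease of monocytes, lower (log2 difference -3.87) and Lyz2, lysozyme of granulocytes and monocytes, higher (2.45). Of 13 late granule genes tested, 7 were called higher and 3 lower, with Chil3 (4.78) and Mmp8 (-2.88) at the ends. Of 13 primary granule and early neutrophil genes, 7 were called higher and 4 lower, and of 9 growth factor receptor genes, 3 higher and 4 lower, led by Csf3r, the G-CSF receptor (1.29), and Csf2rb (-3.88). Of 36 partner transcription factors tested, 17 were called higher and 12 lower, and Spi1 was 1930 and 2114 in Daxx-KO against 1117 and 1112 in WT.

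Marker lists of other cells and of handling moved with the same contrast. Summed mature neutrophil markers were 35613 and 51296 in Daxx-KO GMPs and 4741 and 6592 in WT, with 5 of 9 markers called higher and 2 lower. Summed monocyte and dendritic markers were 6833 and 6518 against 14059 and 15277, with all 8 called lower. The immediate early genes, which respond to handling, summed to 9426 and 14817 against 2819 and 3658, with 10 of 11 called higher. Their part in the differences of the members was not tested. The B-lineage markers summed to 146 to 215 in all 4 libraries.

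**Figure D1:**
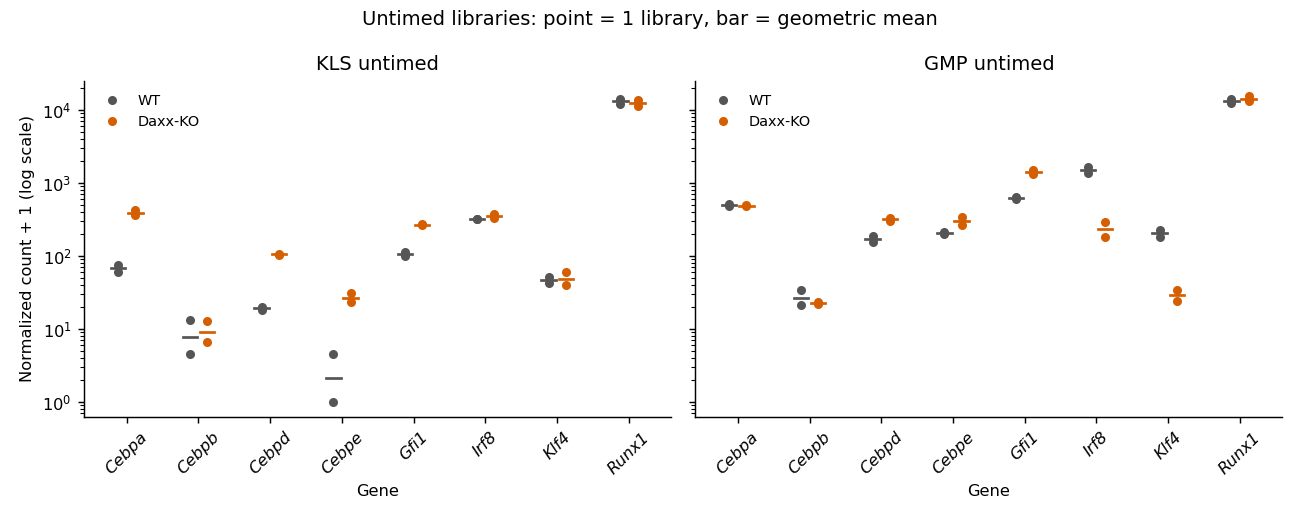
Normalized counts plus 1 (log axis) of the 8 genes in untimed KLS cells (left) and GMPs (right), with 1 point per library and a bar at the geometric mean of each genotype. In GMPs the Daxx-KO libraries lay below WT for Irf8 and Klf4 and above WT for Gfi1, Cebpd and Cebpe. In KLS cells they lay above WT for Cebpa, Cebpd, Cebpe and Gfi1 and just above it for Irf8 (not called).

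In untimed KLS cells, Daxx loss went with higher Cebpa, Cebpd, Cebpe and Gfi1, while Irf8, Klf4 and Runx1 were not called. In all, 4 of the 7 members tested were called, all higher, where 23.1% of 13508 genes were called and 10.6% were called higher. The median of the members was 1.36 and that of all genes 0.03. Cebpb fell under the minimum mean of 10 and was not tested, with 3.44 to 12.0 normalized counts per library.

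Cebpa stood at 58.5 and 74.1 in WT and 354 and 423 in Daxx-KO KLS cells (log2 difference 2.54, SE 0.21, adjusted p 6.7e-05, limma). Gfi1 stood at 96.3 and 110 against 265 and 266 (1.36, SE 0.18, adjusted p 0.0011). The libraries of both genes separated by genotype. Cebpd was 17.2 and 18.95 in WT and 99.55 and 106 in Daxx-KO (log2 difference 2.44, SE 0.34, adjusted p 0.0013, limma). Cebpe was all but absent from WT KLS cells, with 2 reads in WT library 1 and 0 in WT library 2 against 20 and 99 reads in Daxx-KO. The ratio of Daxx-KO to WT was 16.4, with an exact 95% interval of 4.44 to 137 that covers counting error only. Its limma call (3.66, SE 1.00, adjusted p 0.031) depended on the filter on low values and had an adjusted p of 0.1 without it.

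Irf8 was 318 and 320 in WT KLS cells and 325 and 370 in Daxx-KO (log2 difference 0.12, SE 0.14, adjusted p 0.6), in contrast to the GMPs of the same set. The difference between cell types was not tested. Klf4 overlapped between genotypes, at 41.3 and 49.95 in WT and 38.3 and 57.9 in Daxx-KO, and so did Runx1, at 12092 and 13824 against 13607 and 11355. With Daxx-KO library 1 or 2 left out, the differences were 2.49 and 2.40 for Cebpd and 1.36 and 1.35 for Gfi1. Most or all of the 4 calls were lost in these fits, and far fewer of all genes were called. Cebpa was 2.41 on the log2 scale without library 2. Without WT library 1, the one with the high neutrophil markers, these calls were kept, and a similar number of all genes was called.

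Of 13 primary granule and early neutrophil genes tested in KLS cells, 9 were called higher and 1 lower, led by Ms4a3 (5.01). Of 14 monocyte and dendritic genes, 8 were called higher and 2 lower, with F13a1, coagulation factor XIII, at 11921 against 112. Of 13 late granule genes, 2 were called higher. Spi1 rose alongside, at 1093 and 1155 in Daxx-KO against 439 and 400 in WT. The KLS markers summed to 6170 and 5708 in Daxx-KO and to 28134 and 29330 in WT, with 8 of 9 called lower, and 5 of the 7 B-lineage markers tested were called lower. Summed GMP markers were 15413 and 18562 in Daxx-KO against 8841 and 9036 in WT, and summed monocyte and dendritic markers 11807 and 14074 against 771 and 462. A sum is weighted to its highest genes. Of the 8 monocyte and dendritic markers, 6 were called higher, and their median log2 difference was 1.17. What part these shifts have in the higher values of Cebpa, Cebpd, Cebpe and Gfi1 was not tested.

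At 3 w.p.i., Daxx loss alone moved no member past the threshold in KLS cells (limma, 0 of 8 called, also at an unadjusted p under 0.05), where 0.257% of 15200 genes were called. edgeR and DESeq2 on recovered reads called 0 as well. The largest difference was that of Cebpe, with Daxx-KO values of 45.3, 18.8 and 5.23 against WT values of 105, 15.9 and 180 (log2 difference -1.94, SE 0.89, adjusted p 0.44). The Cebpa values of Daxx-KO (187, 310 and 219) overlapped those of WT (143, 198 and 355). Irf8 ranged from 536 to 2774 in Daxx-KO, the highest value being in the library with the highest B-lineage markers, and from 340 to 1317 in WT.

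The KLS libraries labelled DKO differed from both other genotypes. Cebpa, Cebpd, Cebpe and Gfi1 were higher in DKO than in WT or Daxx-KO, and Irf8 was lower than in Daxx-KO. Against WT, 4 of 8 members were called, all higher, where 17.6% of genes were called and 9.24% were called higher. Against Daxx-KO, 5 of 8 were called, 4 higher and 1 lower, where 15.4% were called, 8.17% higher and 7.22% lower. The median of the members was 1.73 against WT and 1.68 against Daxx-KO, and that of all genes was -0.00 and -0.01. Both comparisons share the DKO libraries, and each shares its other group with the comparison of Daxx-KO with WT.

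Gfi1 stood at 2979 and 2207 in DKO against 226, 354 and 576 in WT and 274, 279 and 207 in Daxx-KO. Both DKO libraries lay above the other 6. The log2 difference was 2.83 against WT (SE 0.34, adjusted p 0.00094) and 3.35 against Daxx-KO (SE 0.34, adjusted p 0.00036). Cebpe, at 1813 and 1534 in DKO, differed by 4.60 from WT (SE 0.99, adjusted p 0.013) and by 6.54 from Daxx-KO (SE 0.99, adjusted p 0.0022), the largest difference of any member in any comparison. The call of Cebpe against WT was lost without DKO library 1 (adjusted p 0.12). Cebpa was 1234 and 1182 in DKO (2.48 against WT, adjusted p 0.002, and 2.37 against Daxx-KO, adjusted p 0.0021).

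Cebpd had DKO values of 557 and 440, WT values of 57.3, 66.2 and 255 and Daxx-KO values of 61.1, 68.2 and 73.2. It was called against WT (2.31, SE 0.55, adjusted p 0.02) and against Daxx-KO (2.86, SE 0.55, adjusted p 0.0076). The call against WT was lost in 4 of the 5 fits that left out a WT or DKO library (adjusted p 0.056 to 0.16, with differences of 1.92 to 2.48), and the call against Daxx-KO without DKO library 1 (0.09). Irf8 was 169 and 185 in DKO, below all WT libraries (340, 1023 and 1317) and all Daxx-KO libraries. It was called against Daxx-KO (-2.58, SE 0.68, adjusted p 0.03) but not against WT (-2.12, SE 0.68, adjusted p 0.057), where the fit of these 2 groups alone gave 0.036 and the replicate block 0.031. Its call against Daxx-KO was lost without Daxx-KO library 3 (adjusted p 0.053), DKO library 1 (0.18) or DKO library 2 (0.091), with differences of -2.78, -2.51 and -2.64. Cebpb, at 74.7 and 76.1 in DKO and 21.2 to 47.1 in the other libraries, was not called (adjusted p 0.13 against WT). Klf4 was 5.75 and 89.6 in the 2 DKO libraries, so its mean says little, and Runx1 was 30310 and 22917 (-0.40 against WT, SE 0.21, adjusted p 0.21).

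**Figure D2:**
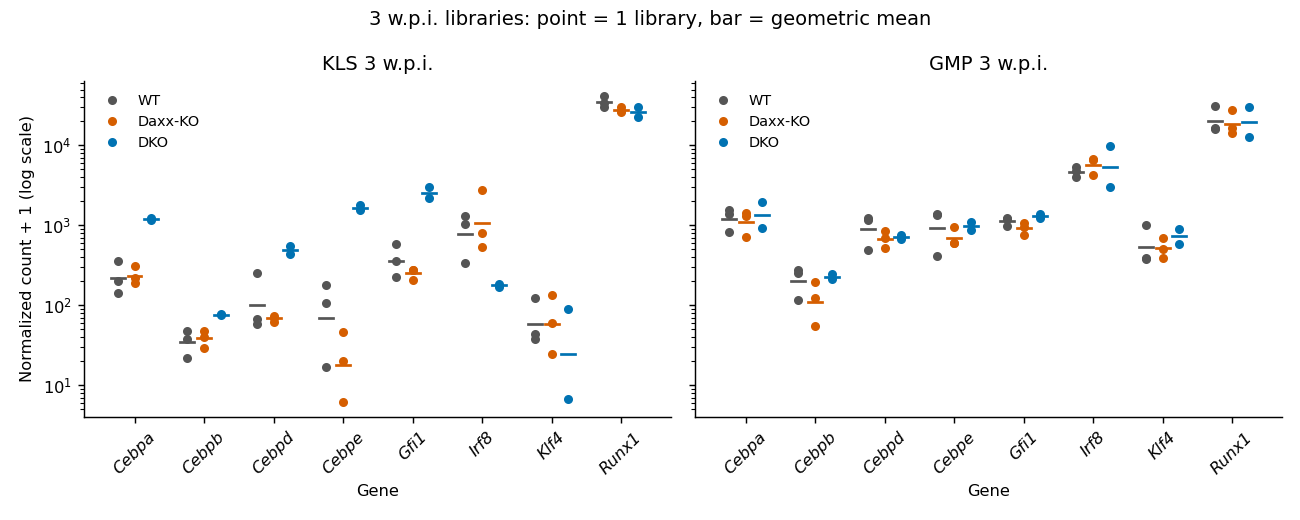
Normalized counts plus 1 (log axis) of the 8 genes at 3 w.p.i. in KLS cells (left) and GMPs (right), with 1 point per library and a bar at the geometric mean of each genotype. In KLS cells the 2 DKO libraries lay above all others for Cebpa, Cebpd, Cebpe, Gfi1 and Cebpb (not called) and below all others for Irf8. In GMPs the genotypes overlapped for most genes.

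Granule genes differed in the same KLS libraries labelled DKO. Against WT, 6 of 13 primary granule and early neutrophil genes were called higher, and of 14 late granule genes 4 were called higher and 1 lower. Against Daxx-KO, 9 of 13 primary granule and early neutrophil genes and 8 of 14 late granule genes were called higher, with Hp, haptoglobin, at 5628 against 123 and Ngp, neutrophilic granule protein, at 120582 against 1284. The late granule gene called lower in both was Itgam, an integrin of myeloid cells (-3.35 against WT and -2.71 against Daxx-KO). Of 15 monocyte and dendritic genes tested against Daxx-KO, 2 were called lower, Cd180 by the most (-3.12). Flt3, a receptor of lymphoid and dendritic progenitors, was 526 in DKO, 3225 in WT and 6535 in Daxx-KO. Summed mature neutrophil markers were 174014 and 140816 in DKO, 983 to 6538 in Daxx-KO and 544 to 29116 in WT, and summed GMP markers were 110247 and 115242 in DKO against 17437 to 54770 in the other 6 libraries. Summed KLS markers were 23392 and 29318 in DKO against 49990 to 70469 in WT, with 4 of 9 called lower, and 31328 to 56827 in Daxx-KO. Their part in the differences of the members was not tested.

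In GMPs at 3 w.p.i., no member was called in any of the 3 comparisons by limma, edgeR or DESeq2. Of all 13714 genes, 0.0948% were called for Daxx-KO against WT, 0.292% for DKO against WT and 0.0583% for DKO against Daxx-KO. At an unadjusted p under 0.05 there were 0, 0 and 1 members. That 1 was Gfi1, at 1371 and 1243 in DKO and 1069, 758 and 946 in Daxx-KO (0.51, SE 0.20, adjusted p 0.53). Irf8 had Daxx-KO values of 6562, 4231 and 6804, WT values of 4049, 4784 and 5329 and DKO values of 3001 and 9826, so the genotypes overlapped.

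Some libraries stood apart from others of their genotype. Daxx-KO library b, WT library b and DKO library a had Runx1 at 27895, 31492 and 29921, against 12683 to 16695 in the other 5 libraries, and the lowest Cebpa of their genotypes (706, 818 and 914). These 3 libraries had the highest summed B-lineage markers of their genotypes, at 11766, 670 and 4225, and the lowest summed GMP markers, at 86910, 121108 and 98081. The part of these markers in the values of the members was not tested. An alternative without these 3 libraries was chosen after seeing the data. For Daxx-KO against WT limma then called 3 members, where 1359 of 13463 genes were called. They were Cebpd (lower, adjusted p 0.0027), Cebpe (lower, adjusted p 0.00014) and Irf8 (0.52, adjusted p 0.043). For DKO against WT the differences were -0.66 for Cebpe and 1.08 for Irf8. DKO then rested on 1 library, assumed to vary like the other groups. Among the libraries kept, summed mature neutrophil markers were 42229 and 42869 for Daxx-KO against 316878 and 246068 for WT, with 121965 for DKO. The libraries left out had 315419 for Daxx-KO, 59987 for WT and 176817 for DKO. Daxx-KO library b also had the highest Cebpd and Cebpe of its genotype (842 and 942), and WT library b the lowest of its own (495 and 413). The part of these markers in these differences was not tested.

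In the Pu.1 line, Klf4 and Cebpe were higher in Pu.1-KO GMPs. These were 2 of 8 members called, where 17.6% of 19337 genes were called and 9.15% were called higher. Klf4 was 956 and 1037 in Pu.1-KO and 518 and 543 in Pu.1-WT (log2 difference 0.91, SE 0.25, adjusted p 0.0044, limma). Cebpe was 1231 and 1444 against 858 and 836 (0.65, SE 0.24, adjusted p 0.039). Klf4 was thus higher in these libraries put in the Pu.1-KO group and lower in untimed Daxx-KO GMPs, but the 2 sets were not tested against each other. Both calls were lost without either Pu.1-WT library (adjusted p 0.29 and 0.53 for Klf4, 0.43 and 0.66 for Cebpe), while the differences were 0.87 and 0.94 for Klf4 and 0.67 and 0.63 for Cebpe. Those fits leave 1 Pu.1-WT library, assumed to vary like the Pu.1-KO pair.

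Cebpd, at 1023 and 1354 against 807 and 768, was not called (0.58, SE 0.24, adjusted p 0.073) but was called with TMM scaling (0.65, adjusted p 0.018). Cebpa was 1652 and 2057 in Pu.1-KO and 2564 and 2449.5 in Pu.1-WT (-0.44, SE 0.24, adjusted p 0.17). Gfi1 overlapped between genotypes (1126 and 1815 against 1810 and 2122), and Irf8 did so too (3285 and 3841 against 3401 and 4195). Late granule genes were called higher in 11 of 14 cases, led by Ly6g (4.05), while 5 of 13 primary granule and early neutrophil genes were called lower and none higher, led by Ms4a3 (-1.92). Summed mature neutrophil markers were 176092 and 172607 in Pu.1-KO against 37700 and 30111, and 7 of 10 B-lineage markers were called higher, and what part these have in the values of Klf4 and Cebpe was not tested. Spi1 was 2589 and 2707 in Pu.1-KO GMPs against 3395 and 3934 in Pu.1-WT. In KLS cells of this line Spi1 overlapped between genotypes, at 2920 and 1307 in Pu.1-KO against 2764 and 2080 in Pu.1-WT.

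Among KLS cells from the Pu.1 line no member was called (limma, 2 at an unadjusted p under 0.05, and 0 by edgeR or DESeq2), where 0.810% of 23459 genes were called. Both Pu.1-KO libraries lay far apart from each other, with Runx1 at 29287 and 7092, Cebpa at 580 and 127 and Gfi1 at 1285 and 341. Cebpe lay above Pu.1-WT in both, at 759 and 474 against 225 and 234 in Pu.1-WT (1.38, SE 0.58, adjusted p 0.13), and Irf8 lay below it in both, at 1567 and 691 against 2536 and 2048 (-1.13, SE 0.61, adjusted p 0.21).

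**Figure D3:**
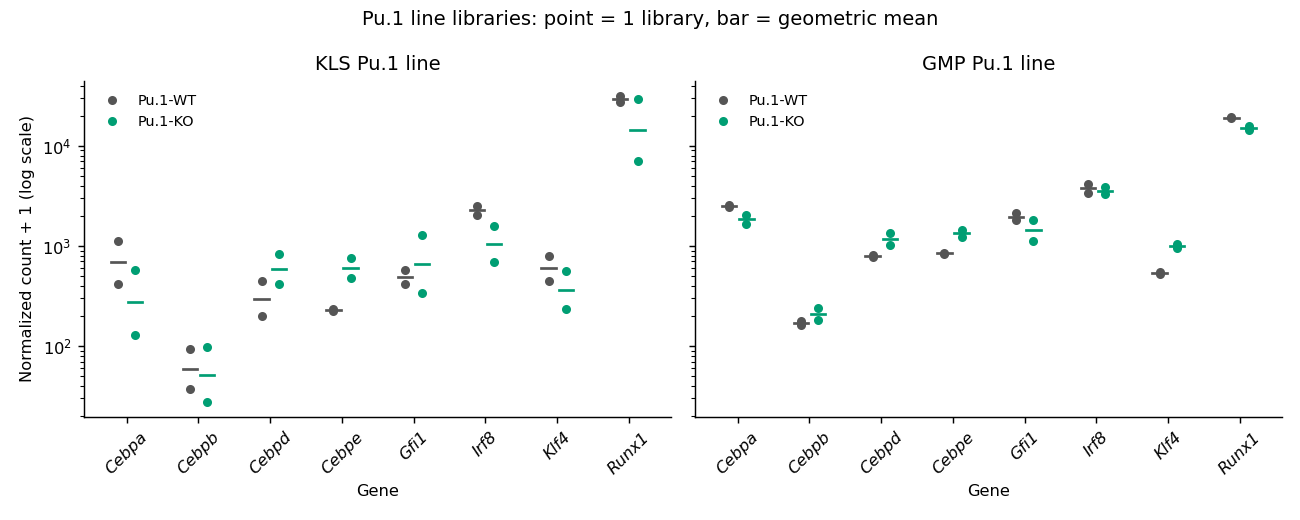
Normalized counts plus 1 (log axis) of the 8 genes in KLS cells (left) and GMPs (right) of the Pu.1 line, with 1 point per library and a bar at the geometric mean of each genotype. In GMPs the Pu.1-KO libraries lay above Pu.1-WT for Klf4 and Cebpe, which were called. They also lay above it for Cebpb and Cebpd and below it for Cebpa and Runx1, which were not called. In KLS cells the 2 Pu.1-KO libraries lay apart from each other for Runx1.

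**Figure D4:**
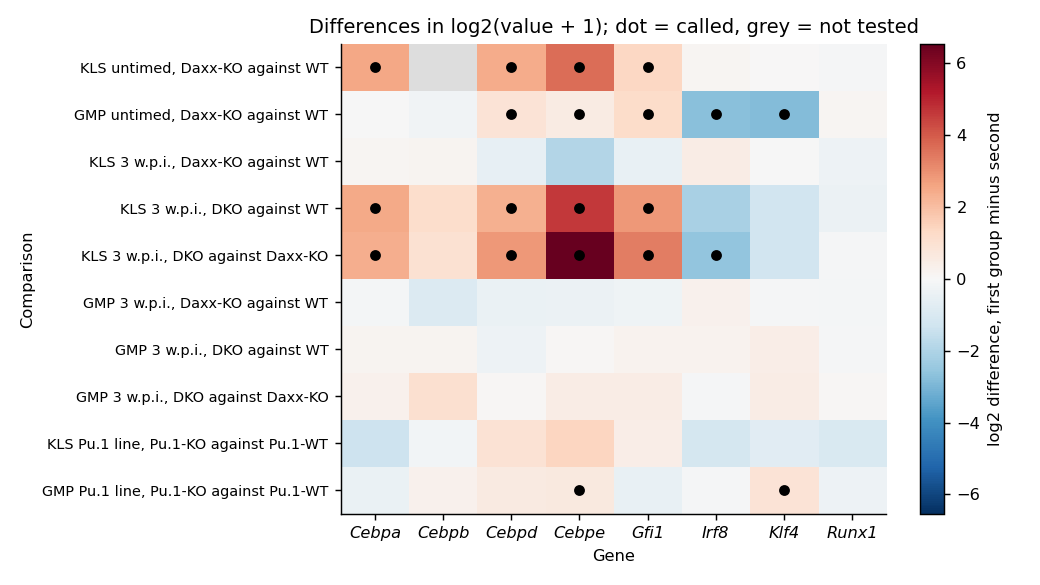
Differences of the 8 genes (columns) in the 10 comparisons (rows) as colours on the log2(value + 1) scale, first group minus second, with a dot where limma called the gene and grey where it was not tested. Calls lie in untimed cells, in the KLS libraries labelled DKO and in Pu.1-KO GMPs, and Runx1 was called in none.

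The ratio of Gfi1 to Irf8 within a library needs no scaling between libraries. It is given as the log2 of normalized counts plus 1, not per length, so only its change between libraries can be read. In untimed GMPs it was -1.09 and -1.47 in WT and 2.36 and 2.90 in Daxx-KO. In untimed KLS cells it was -1.71 and -1.53 in WT and -0.29 and -0.48 in Daxx-KO. For KLS cells at 3 w.p.i. it was 4.13 and 3.57 in DKO, between -1.53 and -0.59 in WT and between -3.31 and -0.97 in Daxx-KO. It was above 0 only in these untimed Daxx-KO GMPs and KLS libraries labelled DKO, among the 32 libraries. In GMPs at 3 w.p.i. it was -2.62, -2.48 and -2.85 in Daxx-KO, below the WT values of -1.71, -2.30 and -2.17, and the DKO values of -1.13 and -2.98 spanned both groups. No test of the ratio was made. In the Pu.1 line it was -2.15 and -2.29 in Pu.1-WT and -0.29 and -1.02 in Pu.1-KO KLS cells, and -0.91 and -0.98 against -1.54 and -1.08 in GMPs.

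**Figure D5:**
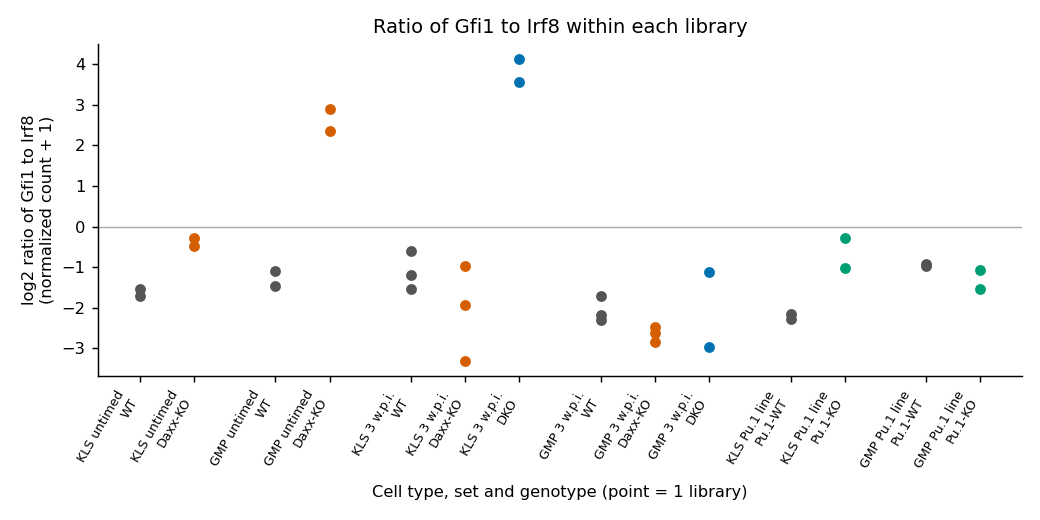
The log2 ratio of Gfi1 to Irf8 (normalized count plus 1) in each of the 32 libraries, grouped by cell type, set and genotype, with 1 point per library and a line at 0. The untimed Daxx-KO GMPs (2.36 and 2.90) and the KLS libraries labelled DKO (4.13 and 3.57) lie above 0 and all others below it.

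Likeness between members was described over the 32 libraries, with each gene centred on its mean in its table. Pearson's r was 0.86 for Cebpd with Gfi1, 0.85 for Cebpd with Cebpe, 0.82 for Cebpe with Gfi1 and 0.79 for Cebpa with Gfi1, while it was 0.73 for Irf8 with Klf4. Irf8 went with Cebpe at -0.54 and with Gfi1 at -0.50, and Runx1 lay between -0.15 and 0.08 with the other 7. These values describe libraries that share tables and genotypes. Among 8876 genes with a mean of 50 or more in every table, the most alike were Surf4, Tspo and Mlec for Cebpa (r from 0.92 to 0.94), Abcd2, Prdx5 and Tmem50b for Cebpd (0.92 to 0.95), Aoah, Mgst1 and Abca13 for Cebpe (0.91 to 0.92) and Mapkapk3, Ero1l and Lbp for Gfi1 (0.94 to 0.96). For Irf8 they were Tifab, Tmem229b and Fabp5 (0.85 to 0.90), for Klf4 Csf1r, Ctss and Plxnb2 (0.73 to 0.77), for Runx1 Znrf1, Ncoa2 and Fam193a (0.95 to 0.97) and for Cebpb Tmx1, Srgn and Emp3 (0.65 to 0.69).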

How the data were processed

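Per the labels, RNA of every sample was extracted with Trizol and made into libraries with the NuGEN Ovation SoLo kit. The study's methods give these for cells of transplanted mice only, and for cells at 3 w.p.i. a NucleoSpin kit and the stranded SMARTer pico kit. The submitters' processing notes name CASAVA 1.8.4, cutadapt 1.13, STAR 2.5.3 and DESeq2 1.16.1, and mm10. Whether strand was used in the counting is not given in the sources used here. The deposited signal values are normalized counts, gene reads that the authors divided by a size factor for each library. In each column, 100% of values above 0 were whole reads within 0.01 after division by the value of 1 read. Tables were normalized separately and tested within a table.

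A mean-variance trend model (limma 3.58.1 in R 4.3.3) was fitted on log2(value + 1) to genes with a mean of 10 or more, all libraries of a table together, with Benjamini-Hochberg adjustment over all genes tested and calls at an adjusted p under 0.05. This scale understates changes of low genes. Alternatives included edgeR 4.0.16 and DESeq2 1.42.0 on the recovered reads, which called 4391 and 3399 genes in untimed GMPs where limma called 4209. The fits were tested on simulated data.

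Groups of the untimed set and of the numbered KLS libraries at 3 w.p.i. came from the labels. Most columns of GMPs at 3 w.p.i. were put in groups by animal numbers that the labels of KLS cells give. No label names the columns of the Pu.1 line. They were put in groups by the control or treatment ending that another deposited table gives each animal number. Neither kind of column has a replicate number, and their libraries are named by letters. The unnumbered WT library of KLS cells and its GMP counterpart were put in the WT group because another deposited table gives that animal number a control ending. Of 111 columns of values per sample, 79 were not used, of which 27 at gene level match no label. The members and lists were chosen with earlier results of these data known. All 8 members are named, and of each list the called genes with the largest rise and fall could be.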

Additional observations from a re-analysis of the deposited data

Results flagged for a closer look

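Irf8 in the untimed set lay on opposite sides of WT in the 2 cell types. Its log2 difference between Daxx-KO and WT was 0.12 in KLS cells, where both Daxx-KO libraries lay just above both WT libraries and the gene was not called, and -2.71 in GMPs, where both lay below. The difference between cell types was not tested.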

How the results depend on the processing

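The 8 members gave 79 differences, and of 1045 values under an alternative, 940 kept their direction and their side of the threshold, 26 lost a call, 18 gained one and 61 changed sign. Each sign change was from a difference that was not called, and 1 of them, Cebpe for DKO against WT in GMPs at 3 w.p.i., was called after it (-0.66, adjusted p 0.037). Cebpe in untimed GMPs lost its call with DESeq2 (adjusted p 0.089), the replicate block (0.056) and 3 of 4 libraries left out. For GMPs at 3 w.p.i., an alternative chosen after seeing the data left out the library of each genotype highest in B-lineage markers (3 in all). It called 3 members for Daxx-KO against WT, where 1359 of 13463 genes were called. In Pu.1-KO GMPs 1 member was called with no filter on low values, where 2596 of 30716 genes were called. The cause was not tested. In the comparisons named next, fits without 1 library that called fewer members also called fewer of all genes, and those that called more members called more. Leaving out 1 library, the members called ranged from 0 to 4 in untimed KLS cells (0 without Daxx-KO library 2, 1 without Daxx-KO library 1), from 2 to 4 for DKO against WT and 3 to 5 for DKO against Daxx-KO in KLS cells at 3 w.p.i. (lowest without DKO library 1), from 0 to 4 in KLS cells of the Pu.1 line (4 without Pu.1-KO library a) and from 0 to 5 in its GMPs (0 without either Pu.1-WT library, 5 without Pu.1-KO library b).

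Sign changes on the log2 scale were as follows. For Daxx-KO against WT in KLS cells at 3 w.p.i., Cebpd was 0.07 with the replicate block, and Klf4 was 0.00 with a pseudocount of 10, 0.11 with edgeR, 0.09 with DESeq2 and 0.48 with the block. In GMPs at 3 w.p.i., for DKO against WT, Cebpe was -0.13 with edgeR and -0.10 with DESeq2, and without the 3 libraries Cebpe was -0.66 and Cebpb -0.13. For DKO against Daxx-KO there, Irf8 was 0.11 with edgeR, 0.13 with DESeq2 and 0.56 without the 3 libraries, and Runx1 was -0.27 without them. Cebpb was 0.00 with edgeR in KLS cells of the Pu.1 line.

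With 1 library left out, the ranges that crossed 0 were, in untimed KLS cells, Klf4 -0.24 to 0.34 and Runx1 -0.19 to 0.07, and in untimed GMPs, Cebpa -0.06 to 0.02 and Cebpb -0.57 to 0.11. In KLS cells at 3 w.p.i., for Daxx-KO against WT, they were Cebpa -0.18 to 0.47, Cebpb -0.15 to 0.41, Cebpd -0.94 to 0.13, Irf8 -0.24 to 0.95 and Klf4 -0.62 to 0.59. There Klf4 ran from -3.13 to 0.62 for DKO against WT and from -3.11 to 0.64 for DKO against Daxx-KO, and Runx1 from -0.28 to 0.12 for the latter. In GMPs at 3 w.p.i., for Daxx-KO against WT, they were Cebpa -0.41 to 0.18, Klf4 -0.30 to 0.41 and Runx1 -0.41 to 0.20. For DKO against WT they were Cebpa -0.40 to 0.72, Cebpb -0.22 to 0.40, Cebpe -0.50 to 0.38, Irf8 -0.64 to 1.07 and Runx1 -0.68 to 0.56, and for DKO against Daxx-KO, Cebpa -0.26 to 0.85, Cebpd -0.10 to 0.26, Irf8 -0.93 to 0.78 and Runx1 -0.56 to 0.68. In the Pu.1 line they were Cebpb -1.08 to 0.71, Gfi1 -0.52 to 1.40 and Runx1 -2.04 to 0.00 in KLS cells and Irf8 -0.24 to 0.06 in GMPs.

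The deviations of same-numbered libraries had an r of -0.01 in untimed KLS cells and -0.11 in untimed GMPs. For KLS cells at 3 w.p.i., r ran from -0.21 to 0.13. In the untimed set, libraries with different numbers had the same r with the opposite sign, because deviations within each genotype mirror each other. These values therefore cannot decide whether same-numbered libraries share more than a number. The replicate block called 4 members in each untimed cell type, where 3343 of 13508 genes were called in KLS cells and 3722 of 12744 in GMPs. It called 5 members for DKO against WT in KLS cells at 3 w.p.i., where 2105 of 15168 genes were called, against 2681 of 15200 in the main fit. With the numbers crossed, a pairing chosen after seeing the data, 4921 genes and 5 members were called in untimed GMPs, against 3722 and 4 with the numbers as labelled. No paired analysis was possible because, for GMPs at 3 w.p.i. and for the Pu.1 line, each animal number in the columns belongs to 1 genotype and the columns could not be matched to the replicate numbers of the labels.

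Over all genes, calls ranged with the setting from 1751 to 3394 in untimed KLS cells, from 36 to 335 for Daxx-KO against WT in KLS cells and from 12 to 1359 in GMPs at 3 w.p.i. With 1 library left out they ran from 419 to 3290, 8 to 137 and 4 to 11 there, for DKO in KLS cells at 3 w.p.i. from 574 to 2975 against WT and from 672 to 2481 against Daxx-KO, and from 13 to 6905 (190 with all) in KLS cells and 151 to 8163 (3412 with all) in GMPs of the Pu.1 line. A group left with 1 library is assumed to vary like the others. In KLS cells of the Pu.1 line, 110 genes were called higher and 80 lower, against 585 and 199 with TMM scaling and 1493 and 194 with edgeR, and the median of all genes moved from 0.12 to 0.21 and 0.26. The planned comparisons at 24 w.p.i., of MPP3 and MPP4 and of LTHSC were not run, since no column could be matched to a label.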
